A study of Drosophila melanogaster with 12 samples.

Results

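Retained intron events of Drosophila melanogaster are introns that some transcripts of a gene splice out and at least one other transcript keeps within an exon. They were built, in the manner of SUPPA, from the exons of the transcripts quantified in larvae of the third instar with and without CLAMP. The annotation gave 1554 retained intron events among 16213 splicing events of 7 classes, and 1028 of them, the events described here, had a summed abundance of at least 3 TPM, the length-scaled abundance of transcripts in a library, on average over the 12 libraries. These 1028 events cover 1023 distinct introns in 779 genes, 596 of which hold a single event. The level of an event is its percent spliced in (PSI), here the share of TPM carried by transcripts that keep the intron, so a PSI of 1 means that every quantified transcript kept it and a PSI of 0 that none did. Just inside the limit were an event of Sprn (3.01 TPM, mean PSI 0.246) and one of vlc (3.02 TPM, mean PSI 0.859), and just outside it were events of HUWE1 (2.98 TPM, mean PSI 0.864) and Sbf (2.97 TPM, mean PSI 0).

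An intron that stays in a polyadenylated transcript can have several fates. In a coding sequence it often brings a premature stop codon, which can send the RNA to nonsense-mediated decay or hold it in the nucleus. In an untranslated region it lies outside the coding sequence and can change translation or stability of the RNA. Drosophila has many very short introns, whose splice sites are recognised across the intron, and intron retention is part of the textbook account of sex in this animal: in females Sex-lethal keeps an intron in the 5′ untranslated region of msl-2, which helps to block the male dosage compensation complex. CLAMP is a zinc-finger protein that binds GA-rich DNA and links that complex to the male X chromosome.

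RNA was sequenced from 4 groups of larvae of the third instar in 12 libraries, 3 per group: clamp null females, control females, clamp null males and control males. Clamp null larvae are labelled yw;Clampnull and carry the clamp2 allele per the study's methods, controls are yw, and all were kept at 24 °C. Per the labels each library holds the polyadenylated RNA of 3 whole larvae, so every value is a mixture of tissues, and neither the age within the instar nor separate cultures are stated, so p-values measure the spread between these libraries. Per the study clamp null larvae do not pupate, and homozygous clamp2 males do not live into the late part of that instar. The sex tag of the labels gives 1 sex to each genotype and conflicts with the titles, which were used.

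The libraries differed in more than genotype. Clamp RNA itself averaged 18.6 ± 2.04 TPM in clamp null and 40.3 ± 4.44 TPM in control females. In males it averaged 22.0 ± 0.696 TPM in clamp null and 53.7 ± 8.95 TPM in control males (SD, n = 3 each). The 19 testis markers summed to 9.17, 15.3 and 308 TPM in clamp null males and to 1428, 1748 and 2228 TPM in control males, against 6.58 to 12.4 TPM in clamp null females and 16.1 to 32.5 TPM in control females. Of 627 genes with at least 5 TPM in every control male and under 0.5 TPM in every control female, 499 reached 1 TPM in clamp null male 6, but only 25 and 20 in clamp null males 4 and 5. In clamp null females 15, 28 and 14 of these genes reached 1 TPM. Clamp null males 4 and 5 thus lay within the range of the clamp null females in that measure, no other check of their sex was made here, and every value for clamp null males and every interaction rests on the titles. With clamp null male 6 alone for its group, chosen after seeing the data and assumed to vary like the other groups, limma on PSI called 26 retained introns between male genotypes and 16 between clamp null sexes, against 20 and 1 with all libraries, and 15 interactions against 3. Shares of these limma counts over all splicing events are not given, so the counts compare settings only. The 7 salivary gland markers summed to 1091 to 5328 TPM in clamp null females and 80367 to 152804 TPM in control females, and to 1021 to 2562 TPM in clamp null males and 115808 to 148214 TPM in control males. The 5 muscle markers ran the other way, at 14082 to 16456 TPM in clamp null females and 3516 to 6560 TPM in control females, and at 13433 to 17067 TPM in clamp null males and 2688 to 3701 TPM in control males. In bulk RNA fewer cells of a type and less RNA per cell cannot be told apart, and the part of tissue make-up in the PSI values below was not tested.

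Most retained introns sat in untranslated sequence and were short. Of the 1028 events, 570 lay in the 5′ UTR of the transcript that keeps the intron, 175 inside its coding sequence, 148 where that coding sequence ends within the intron, 81 in the 3′ UTR and 54 where the coding sequence starts within it. The place was read from the most abundant retaining transcript. A place in the 5′ UTR does not mean that both forms encode the same protein. Coding lengths of the main retaining and spliced transcripts were 987 and 1332 nt in Pdha and 885 and 1143 nt in Hpd. The introns measured 23 to 8771 nt with a median of 100 nt, close to the 102 nt of the 57098 other introns of the quantified transcripts and shorter than the 189 nt of the 5089 other introns of the same host genes. Introns of 80 to under 200 nt made up 28.4% of the retained set and 13.6% of the other introns of the same genes, whereas those of 1000 nt and longer made up 4.50% and 26.1%. Of the 175 introns inside a coding sequence, 77.7% were a multiple of 3 in length, which keeps the reading frame, against 35.6% of those in the 5′ UTR and 33.5% of the other introns of the same genes. That share follows in part from the classes, since an intron that meets a stop codon counts where the coding sequence ends. In that class 28.4% were a multiple of 3. The intron was the first one of the spliced transcript in 608 events (59.1%). These shares describe the annotation and carry no test.

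PSI was lower in longer introns. The median over events of the mean PSI was 0.586 for the 146 introns under 60 nt, 0.514 for the 265 of 60 to 79 nt, 0.503 for the 292 of 80 to under 200 nt, 0.406 for the 279 of 200 to under 1000 nt and 0.197 for the 46 of 1000 nt and longer. Over the 1028 events Spearman's rho of PSI with length was −0.12, and over the 583 events with at least 10 TPM it was −0.20. The events share libraries and many share a gene, so these are descriptions. By place, the median was 0.727 in the 3′ UTR, 0.588 inside the coding sequence, 0.427 in the 5′ UTR, 0.361 where the coding sequence ends in the intron and 0.333 where it starts there. Events at the extremes were common, with a mean PSI under 0.1 in 203 events and over 0.9 in 181. In all libraries with a value, PSI was 0 in 18 events and 1 in 32.

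**Figure D1:**
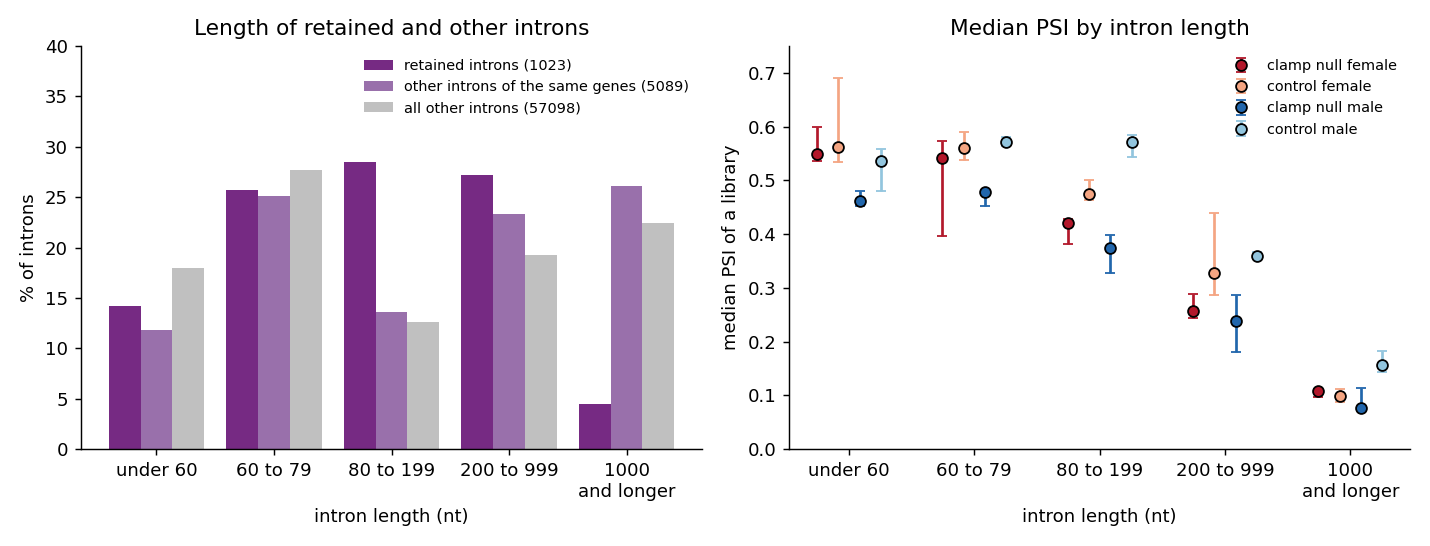
Left, share of introns (%) in 5 length classes (nt) for the 1023 retained introns, the 5089 other introns of the same genes and the 57098 other introns of the quantified transcripts. Right, median PSI of the retained introns in each class, with points at the middle library of a group and bars from its lowest to its highest library (n = 3). Median PSI is lowest in the class of 1000 nt and longer in every group.

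How well a PSI is known depends on abundance. No counts of reads entered, the depth is unknown, and error is measured by how far the 3 replicates of a group differ. The median SD of PSI was 0.122 for the 445 events with 3 to 10 TPM, 0.0834 for the 344 with 10 to 30 TPM, 0.0493 for the 156 with 30 to 100 TPM and 0.0198 for the 83 with over 100 TPM. In females the smallest difference called was 0.667 in the class of 3 to 10 TPM and 0.124 in the class over 100 TPM. A PSI was defined in all 12 libraries for 829 events, and the rest had no transcript of the event in at least 1 library. The intron overlaps an exon of another gene in 64 events, and reads from both cannot be told apart where the counting did not use strand, which is not given in the sources used here.

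Counting every retained intron alike, the median and mean PSI were lower in clamp null larvae. The median PSI of the 829 events was 0.401, 0.362 and 0.408 in the 3 clamp null female libraries and 0.481, 0.441 and 0.426 in control females. In males it was 0.289, 0.343 and 0.367 in clamp null libraries and 0.455, 0.465 and 0.461 in controls. By that median the groups do not overlap in either sex. A PSI of 0 was held by 17.6% to 25.7% of these events in clamp null and 13.6% to 17.6% in control females. In males it was held by 20.3% to 26.8% in clamp null and 11.6% to 14.1% in control libraries. A PSI of 1 was also more common in clamp null males, at 22.8% to 27.4% of these events against 19.3% to 21.8% in control males. Both extremes thus held more events in clamp null males, not the low end alone. In females the shares at a PSI of 1 overlap between the genotypes. The mean PSI was 0.464 ± 0.0108 in clamp null females and 0.489 ± 0.0107 in control females, and 0.449 ± 0.00745 in clamp null males and 0.494 ± 0.0017 in control males (SD, n = 3 each). Its range was 0.453 to 0.475 in clamp null females and 0.482 to 0.501 in control females. Of the summed TPM of the 1028 events, retaining forms carried 25.3%, 21.3% and 23.6% in clamp null females. In control females they carried 24.0%, 24.0% and 21.3%, so weighted by TPM the female groups overlap. In males the shares were 22.1%, 24.2% and 20.9% in clamp null and 26.7%, 25.9% and 26.2% in control libraries. For a single value of 3 libraries against 3 the exact permutation test cannot give a p under 0.1, so no such difference could pass a threshold of 0.05.

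**Figure D2:**
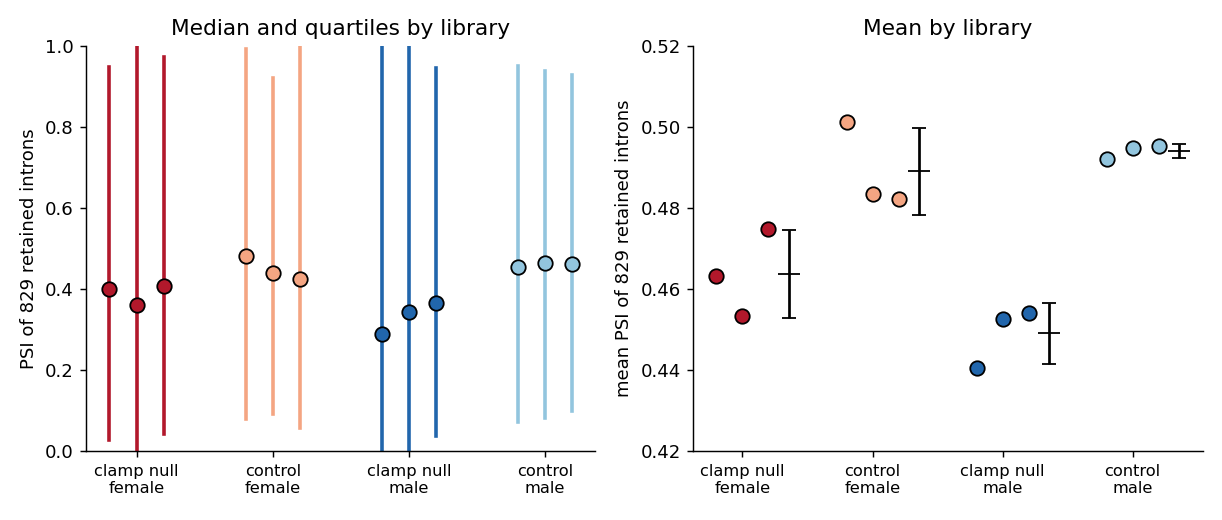
PSI of the 829 retained introns with a value in every library, by group and library (n = 3 per group). Left, median (point) and quartiles (line) of each library; right, mean of each library (point), with the group mean and SD beside it in black. The means are 0.441 to 0.475 in clamp null libraries and 0.482 to 0.501 in control libraries; the right axis does not start at 0.

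Event by event the shift was small. The median difference in PSI (clamp null minus control) was −0.0059 in females over 880 events and −0.012 in males over 873. The mean differences were −0.026 and −0.045. Over all events of the 7 classes the medians were 0 and the means −0.010 in females and −0.015 in males. For first, last and mutually exclusive exons, coordinates set which form counts as included, so this background mixes directions. Alternative 3′ splice sites had means of −0.026 in females and −0.0275 in males, so a lower mean was not particular to retained introns. In females the median difference depended on single libraries, at −0.00014 without clamp null female 5, −0.0024 without clamp null female 6, −0.00069 without control female 1 and −0.00047 without control female 2. In males it was −0.0075 without clamp null male 4, −0.0076 without clamp null male 6 and 0 without clamp null males 4 and 5 together. PSI was lower in clamp null larvae in 467 events and higher in 327 in females, and lower in 478 and higher in 321 in males. Among the events whose 3 clamp null libraries all lay on one side of the 3 controls, 83 were lower and 33 higher in clamp null females, which is 9.43% and 3.75% of those tested against a background of 7.37% and 5.69% over the 7 classes. In males 99 were lower and 42 higher in clamp null larvae, or 11.3% and 4.81%, against 9.37% and 7.0%. The lower side thus lay above its background and the higher side under it in both sexes. Permuting genotype within sex, 25 of the 829 events with lower PSI in clamp null larvae and 7 with higher PSI reached the smallest p that 400 assignments can give, an exact permutation p of 0.005, against backgrounds of 2.49% and 1.69%. None had an adjusted p under 0.05 over all events by that permutation test, the smallest being 0.132. The median differences in the 5′ UTR were −0.0092 in females and −0.014 in males, and where the coding sequence ends in the intron −0.0059 and −0.038. The classes of 80 to under 200 nt (−0.0053 and −0.018) and of 200 to under 1000 nt (−0.021 and −0.026) were also below 0 in both sexes.

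To find single introns that differ between genotypes, the difference in PSI was compared with differences between replicates of events of similar abundance, the empirical test of SUPPA, with p-values adjusted within each gene and calls at an adjusted p under 0.05. In females 24 of 880 events in 23 genes were called (2.73%, background 2.4%), of which 9 had higher PSI in clamp null females and 15 lower (backgrounds 1.09% and 1.31%). In males 32 of 873 events in 31 genes were called (3.67%, background 2.89%), of which 10 had higher PSI in clamp null males and 22 lower (backgrounds 1.5% and 1.39%). Of 1442 alternative 3′ splice sites tested in females, 10 were called higher and 26 lower, and of 1445 in males 13 and 27. A count restricted, after seeing the data, to events averaging at least 3 TPM in both groups gave 24 of 773 in females (3.10%, background 2.61%) and 30 of 761 in males (3.94%, background 3.03%). The libraries of the groups do not overlap in 13 of the 24 events and in 21 of the 32. The calls depend on the adjustment, since over all events of the 7 classes 0 retained introns passed in either sex by the empirical test, with 57 and 61 at an unadjusted p under 0.05. With limma on PSI, adjusted over all events, 5 passed in females and 20 in males. For the calls without overlap, the unadjusted p and limma, shares over the 7 classes are not given. Those counts are therefore not set against other events. Without clamp null male 4 or 5, the libraries with little testis RNA, 56 and 55 events were called in males, and without clamp null male 6 it was 59. In females 42 were called without clamp null female 4 and 42 without clamp null female 6.

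**Figure D3:**
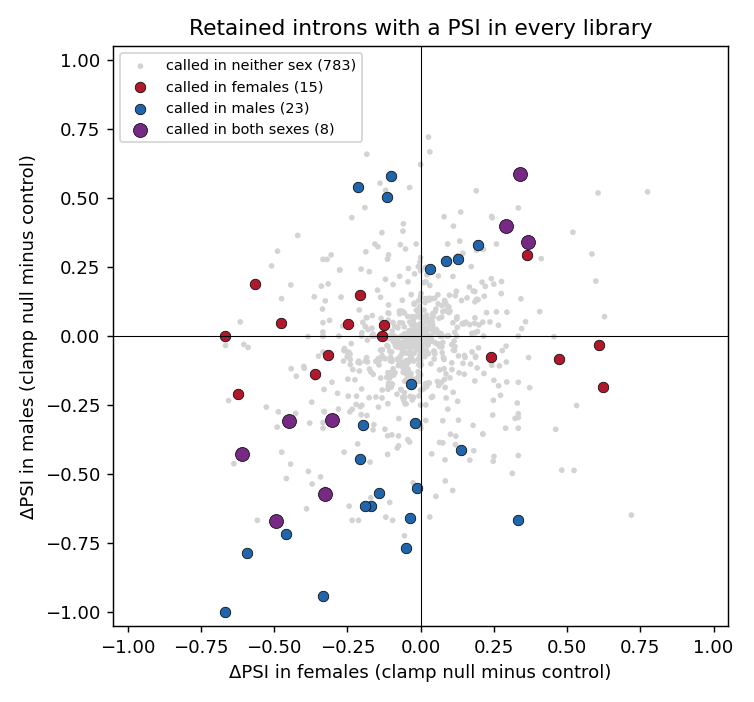
Difference in PSI between clamp null and control in females (x axis) and males (y axis) for the 829 retained introns with a value in every library; each point is 1 event, coloured by the sexes in which it was called. The 8 events called in both sexes lie above 0 on both axes (3) or below 0 on both (5), 23 events were called in males only, 15 in females only and 783 in neither.

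Called in both sexes were 8 events, 3 with higher and 5 with lower PSI in clamp null larvae, each with the same sign in females and males. Of these 8, limma on PSI, adjusted over all events, called only CG13676 in both sexes and Nipsnap in males. The first with higher PSI was Su(var)205, which encodes HP1a, the protein that binds methylated histone H3 in heterochromatin. Its 117-nt intron in the 5′ UTR (chromosome arm 2L, 8210862-8210978, dm6) had a PSI of 0.416, 0.456 and 0.489 in clamp null females, against 0.0746, 0.0715 and 0.118 in control females. It was 0.382, 0.653 and 0.26 in clamp null males, against 0.107, 0.0966 and 0.0748 in control males. Every clamp null library lay above every control library, although limma on PSI did not call it (adjusted p = 0.124 in females and 0.0776 in males). The difference was 0.366 in females (adjusted p = 0.0025, empirical test) and 0.339 in males (adjusted p = 0.00749). The forms differed in opposite directions: the retaining form averaged 54.2 TPM in clamp null females and 19 TPM in control females, and the spliced form 63.3 TPM in clamp null and 205 TPM in control females. In males the retaining form averaged 61.1 TPM in clamp null and 23.8 TPM in control, and the spliced form 77.8 TPM in clamp null and 234 TPM in control. Expression of the gene as a whole was lower in clamp null larvae, with a log2 difference of −0.95 ± 0.24 (SE) in females and −0.89 ± 0.24 in males on the log2(TPM + 1) scale (limma, adjusted p = 0.0138 and 0.00839), beside medians of −0.20 and −0.75 over all genes.

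Nipsnap, which encodes a mitochondrial protein of the NIPSNAP family, kept its 78-nt 5′ UTR intron (X, 16073432-16073509) at a PSI of 0.653, 0.77 and 1 in clamp null females and 0.621, 0.486 and 0.296 in control females. In clamp null males it was at 1 in all libraries, against 0.406, 0.31 and 0.519 in control males. No spliced form was quantified in clamp null males, whereas control males had 31.4, 28.5 and 21.8 TPM of it. The difference was 0.34 in females (adjusted p = 0.03) and 0.588 in males (adjusted p = 0.011), limma on PSI gave an adjusted p of 0.278 and 0.0236, and the gene as a whole rose as well, with a log2 difference of 1.22 ± 0.30 (SE) in females and 0.80 ± 0.30 in males (limma, adjusted p = 0.012 and 0.0385). The other event with higher PSI, a 64-nt 5′ UTR intron of the chaperonin subunit gene CCT1, had overlapping groups. Its PSI was 0.448, 1 and 0.313 in clamp null females and 0.245, 0.422 and 0.223 in control females, and 1, 0 and 0.427 in clamp null males and 0.0391, 0 and 0.189 in control males. When 1 library was left out the call ended, at the difference in parentheses, for Nipsnap without clamp null female 6 (0.244), CCT1 without clamp null female 5 (0.0832), and CCT1 without clamp null male 4 (0.138). The call stood but the difference moved by over 1.5 times for CCT1 without clamp null male 5 (0.638).

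Among the 5 events with lower PSI in both sexes, CG13676 and Syx5 had no overlap in either. The 589-nt intron inside the coding sequence of CG13676 (3L, 8142819-8143407) was at 0.243, 0.191 and 0.157 in clamp null females and 0.473, 0.567 and 0.454 in control females. In males it was at 0.183, 0.206 and 0.233 in clamp null and 0.524, 0.507 and 0.499 in control libraries. The control male libraries differed by an SD of only 0.0128, and the differences were −0.301 in females and −0.303 in males (adjusted p = 0.019 and 0.0345). It was also called by limma on PSI in both sexes, with an adjusted p of 0.00484 and 0.00192 over all events. Total abundance of the gene was not called different in either sex (limma, adjusted p = 0.485 and 0.654), while the spliced form averaged 46.6 TPM in clamp null females and 22.7 TPM in control females. Syx5 encodes a SNARE protein of transport between endoplasmic reticulum and Golgi. Its 93-nt 5′ UTR intron was at 0.355, 0.226 and 0.149 in clamp null females and 0.715, 0.519 and 0.475 in control females. In males it was at 0, 0.209 and 0.185 in clamp null and 0.312, 1 and 0.801 in control libraries, with differences of −0.326 and −0.573 (adjusted p = 0.019 and 0.00699).

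The other 3 overlapped between genotypes in at least one sex. Apc2 encodes a homologue of the APC tumour suppressor of the Wnt pathway, and its 60-nt coding intron was at 0, 0 and 0.3 in clamp null females and 1, 0.207 and 0.443 in control females, and at 0, 0 and 0.126 in clamp null males and 0.193, 0.483 and 0.367 in control males. Ttd14, known for trafficking of the TRPL channel in photoreceptors, has a 287-nt intron in which the coding sequence of the retaining form ends. It was at 0.16, 0.321 and 0.185 in clamp null females and 1, 1 and 0.143 in control females, and at 0.137, 0.0186 and 0.0673 in clamp null males and 0.232, 1 and 1 in control males. The 99-nt 5′ UTR intron of CG4658 was at 0, 0 and 0.365 in clamp null females and 1, 1 and 0.192 in control females, and at 0.219, 0 and 0.496 in clamp null males and 1, 1 and 0 in control males. In each of the 3 a single control library lay at or below the highest clamp null value, in females for Apc2 and Ttd14 and in both sexes for CG4658. For Ttd14 the retaining form averaged 6.71 TPM in clamp null and 6.07 TPM in control females, and the spliced form averaged 24.5 TPM in clamp null and 3.41 TPM in control females. The call was lost, with the difference then left in parentheses, for Apc2 without control female 1 (−0.225), Apc2 without control male 2 (−0.238), Ttd14 without clamp null female 4 (−0.461), control female 1 (−0.349) or control female 2 (−0.349), Ttd14 without control male 3 (−0.541), and CG4658 without clamp null male 5 (−0.309), control male 1 (−0.262) or control male 2 (−0.262). The call stood but the difference moved by over 1.5 times for Ttd14 without control female 3 (−0.778) and CG4658 without control male 3 (−0.762).

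**Figure D4:**
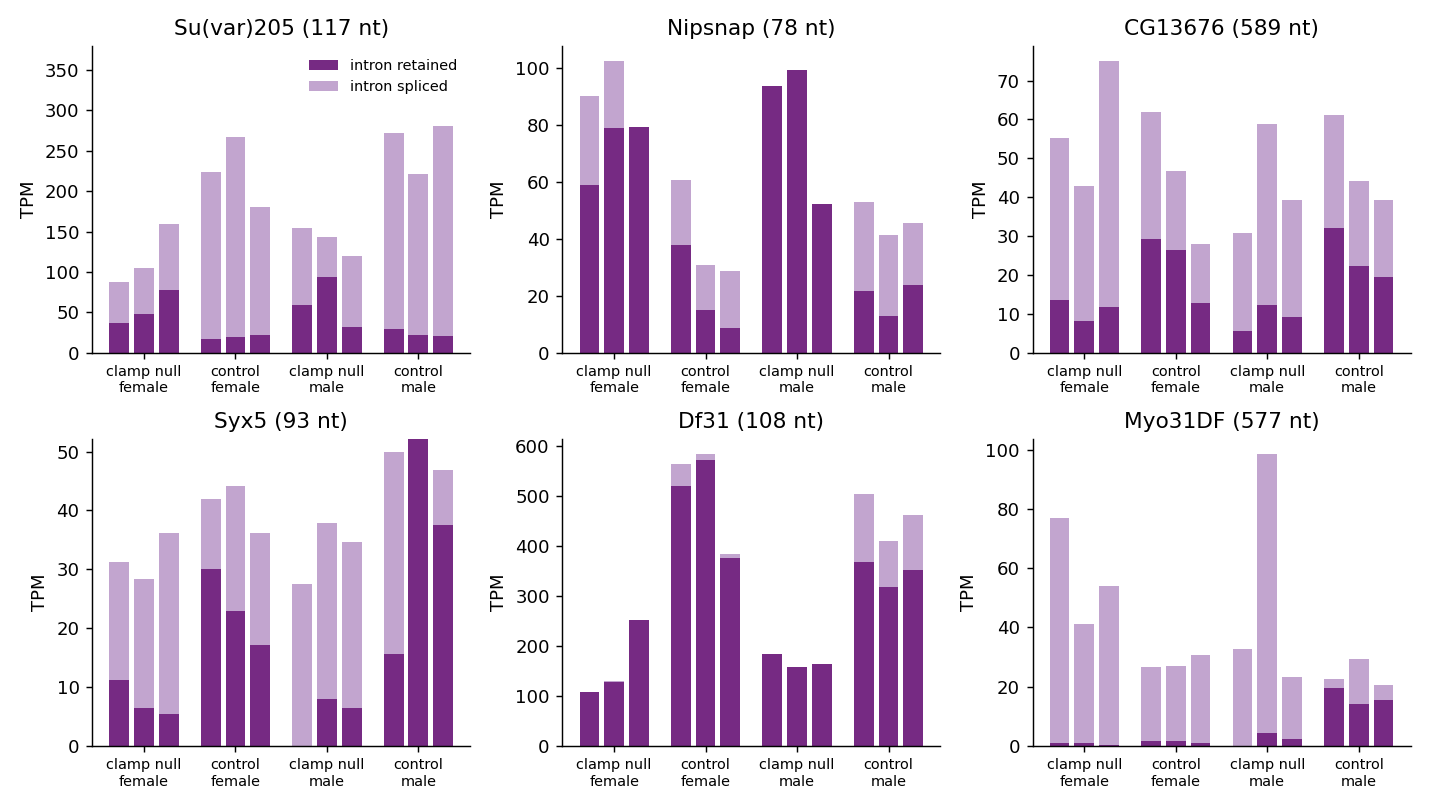
TPM of transcripts that keep the intron (dark) and that splice it (light) in each of the 12 libraries (bars, 3 per group) for 6 events; the bar height is their sum. In Su(var)205 and Nipsnap the retaining share is larger in clamp null libraries, in CG13676 and Syx5 it is smaller, and in Df31 and Myo31DF the control males differ from the other 3 groups.

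Among the falls in females without overlap the largest was in flap, whose 480-nt coding intron was at 0.296, 0.249 and 0.153 in clamp null and 0.563, 1 and 1 in control females (difference −0.622, adjusted p = 0.04). The 59-nt 5′ UTR intron of HIP-R, related to an Hsc70-interacting cochaperone, was not kept in any clamp null female (PSI 0 in 3 libraries) and was at 0.0724, 0.621 and 1 in control females. Gp150, a transmembrane glycoprotein with leucine-rich repeats, kept its 144-nt 5′ UTR intron at 0, 0.0234 and 0.00931 in clamp null and 1, 0.176 and 0.288 in control females. In these 3 events the groups do not overlap, but the control libraries themselves spread widely in HIP-R and Gp150. For Gp150 the retaining form was low in both, at 0.624 TPM in clamp null and 2.52 TPM in control females. The spliced form averaged 60.2 TPM in clamp null and 4.89 TPM in control females. UQCR-C1, a core subunit of mitochondrial complex III, was at 0.453, 0.207 and 0.408 in clamp null and 0.564, 0.788 and 0.661 in control females (72-nt intron in the 5′ UTR, difference −0.314, adjusted p = 0.0045). Both of its forms were more abundant in clamp null females, the retaining form at 243 TPM against 126 TPM in control and the spliced form at 429 TPM against 59 TPM in control. CG34232, whose 129-nt intron holds the start of the coding sequence, gave the smallest of them, at 0.0607, 0.0268 and 0.0495 in clamp null and 0.121, 0.271 and 0.141 in control females. When 1 library was left out the call ended, at the difference in parentheses, for flap without clamp null female 5 (−0.63) or control female 2 (−0.549), HIP-R without control female 3 (−0.347), Gp150 without clamp null female 4 (−0.472) or control female 1 (−0.221), and CG34232 without clamp null female 5 (−0.122), clamp null female 6 (−0.134) or control female 2 (−0.0851).

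Higher PSI in clamp null females was led by MsrA, a reductase that repairs oxidised methionine. Its 122-nt intron, in which the coding sequence of the retaining form ends, was at 1, 1 and 0.851 in clamp null and 0.288, 0.257 and 0.474 in control females (difference 0.61, adjusted p = 0.02). Here both forms were less abundant in clamp null females, the retaining form at 5.11 TPM against 22.6 TPM in control and the spliced form at 0.518 TPM against 50.9 TPM in control. In males MsrA was at 0, 0.398 and 0.389 in clamp null and 0.469, 0.203 and 0.217 in control libraries (adjusted p = 0.285). The 95-nt 5′ UTR intron of loj, a p24 protein of cargo transport from the endoplasmic reticulum, was at 0.416, 0.627 and 1 in clamp null and 0.281, 0.324 and 0.353 in control females. CG15093 has 2 overlapping introns of 67 and 55 nt that share one end, so they are not independent. The longer was at 0.242, 0.335 and 0.195 in clamp null and 0, 0 and 0.0476 in control females, and an antisense gene overlaps it. Single libraries decided the call, with the difference without them in parentheses, of loj without clamp null female 6 (0.202) or control female 2 (0.364) and CG15093 (67 nt) without clamp null female 4 (0.25), clamp null female 5 (0.203), control female 1 (0.234) or control female 2 (0.234).

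**Figure D5:**
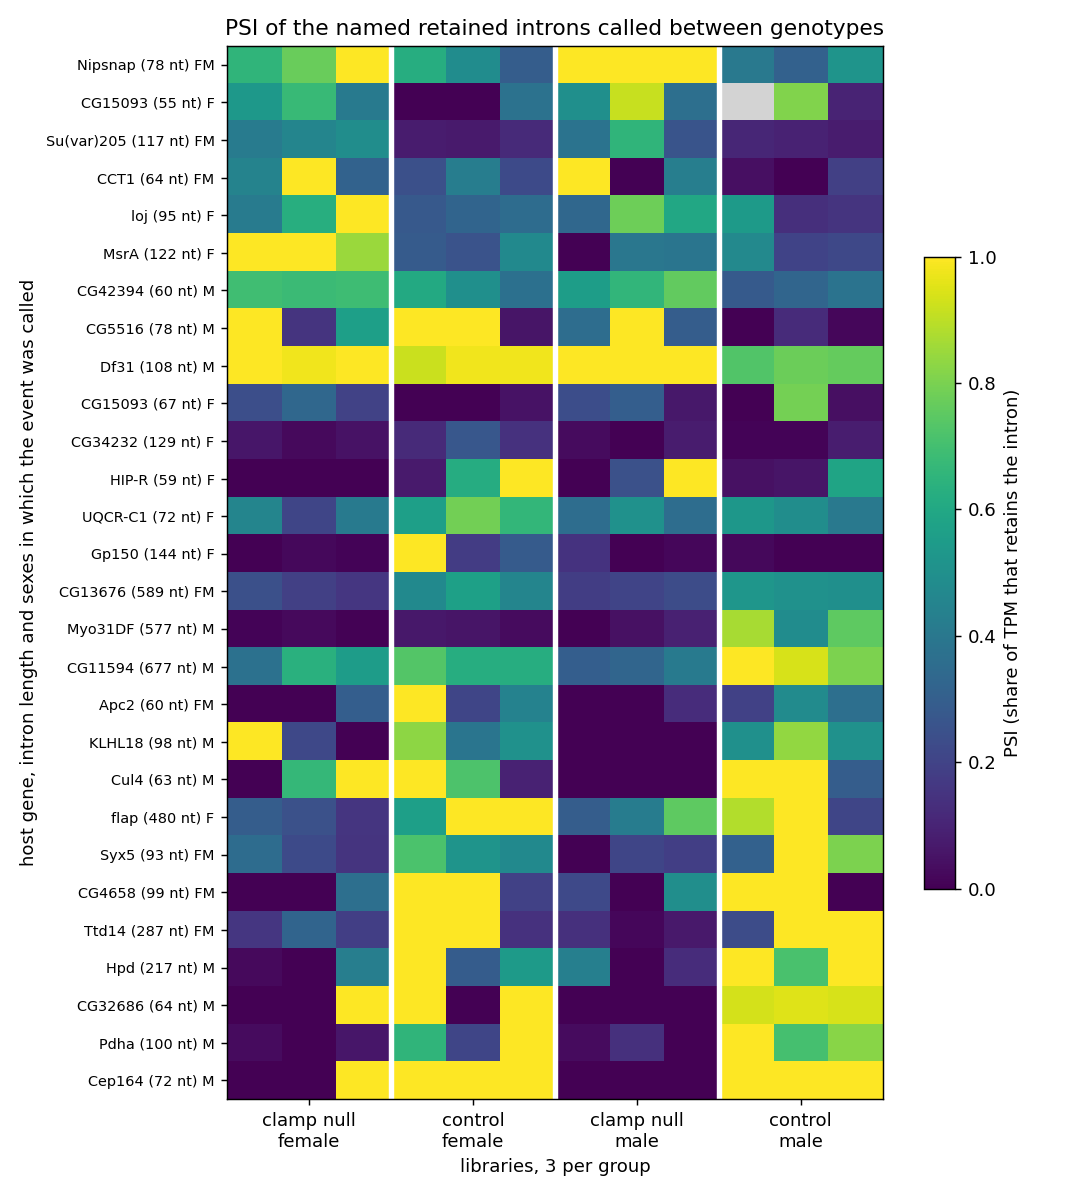
PSI (colour, 0 to 1; grey, no value) of the 28 named retained introns called between genotypes, ordered by the mean of the differences in females and males, with the largest rise in clamp null larvae at the top. Columns are the 12 libraries in 4 groups; F and M after a name mark the sexes in which it was called. Cep164 at the bottom is at 0 in the 3 clamp null males and at 1 in the 3 control males. Cep164 and CG32686 passed the minimum of 3 TPM only through groups in which they were high, and neither is taken as a result on retention.

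In males, 5 called introns were at a PSI of 0 in every clamp null library and kept in part or whole in every control, in Cep164, CG32686, Cul4, KLHL18 and the larval serum protein receptor Fbp1. The 72-nt 5′ UTR intron of Cep164, a centriole and cilium protein, was at 1 in all control males. The 64-nt coding intron of CG32686 was at 0.934, 0.952 and 0.941 in control males. The 63-nt 3′ UTR intron of Cul4, the scaffold of a ubiquitin ligase, was at 1, 1 and 0.296, and the 98-nt intron of KLHL18, a kelch-like protein, at 0.504, 0.837 and 0.507 in control males. Cep164 and CG32686 passed the minimum of 3 TPM only through groups in which they were high. In clamp null males all forms of the Cep164 event came to 2.4, 0.782 and 2.05 TPM, and in control males to 8.19 TPM on average. For CG32686 they came to 0.27, 1.29 and 2.46 TPM in clamp null males, while the retaining form alone averaged 14.7 TPM in control males. Neither event is therefore taken as a result on retention. All 5 genes were also lower as a whole in clamp null males, by limma on log2(TPM + 1), with log2 differences of −2.94 for CG32686, −1.95 for KLHL18, −1.80 for Cep164, −0.81 for Cul4 and −9.19 for Fbp1 beside a median of −0.75 over all genes. Myo31DF, the unconventional myosin that sets left-right asymmetry, kept its 577-nt 5′ UTR intron (2L, 10506107-10506683) at 0, 0.0443 and 0.0928 in clamp null and 0.868, 0.488 and 0.752 in control males. In females it was at 0.0115, 0.024 and 0.00515 in clamp null and 0.0655, 0.0572 and 0.0279 in control libraries. High retention was thus seen in control males alone among the 4 groups, where the retaining form averaged 16.4 TPM, against 2.18 TPM in clamp null males. An antisense gene overlaps this intron, and the difference between male genotypes was −0.657 (adjusted p = 0.016). The call was lost, with the difference then left in parentheses, for KLHL18 without control male 2 (−0.505).

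Other introns with lower PSI in clamp null males were found in Pdha, Hpd and CG11594. Pdha, the E1 alpha subunit of pyruvate dehydrogenase, was at 0.031, 0.14 and 0 in clamp null and 1, 0.703 and 0.824 in control males (100-nt 5′ UTR intron, difference −0.785, adjusted p = 0.0375). In females it stood at 0.0291, 0 and 0.0609 in clamp null and 0.655, 0.208 and 1 in control libraries, without overlap but with an adjusted p of 0.0824. Hpd, which acts in tyrosine breakdown, was at 0.432, 0 and 0.129 in clamp null and 1, 0.713 and 1 in control males (217-nt 5′ UTR intron), and a long noncoding RNA gene on the other strand overlaps it. CG11594 was at 0.298, 0.326 and 0.413 in clamp null and 1, 0.938 and 0.801 in control males (677-nt 5′ UTR intron). In Pdha the retaining form averaged 1.26 TPM in clamp null and 3.22 TPM in control males, while the spliced form averaged 20.4 TPM in clamp null and 0.687 TPM in control males. RpL9, a protein of the large ribosomal subunit, was called with overlap, at 0, 0 and 0.434 in clamp null and 0.665, 1 and 0.422 in control males. Higher PSI in clamp null males was found in CG42394 (0.556, 0.659 and 0.758 in clamp null and 0.284, 0.325 and 0.38 in control males, 60-nt 3′ UTR intron), and in CG5516 (0.359, 1 and 0.294 in clamp null and 0, 0.124 and 0.0185 in control males, 78-nt 5′ UTR intron). CG42394 was also without overlap in females, at 0.695, 0.68 and 0.689 in clamp null and 0.608, 0.498 and 0.37 in control libraries (adjusted p = 0.112). When 1 library was left out the call ended, at the difference in parentheses, for Pdha without clamp null male 4 (−0.772), control male 1 (−0.706) or control male 3 (−0.794), CG11594 without control male 1 (−0.524), and CG42394 without clamp null male 6 (0.278). The call stood but the difference moved by over 1.5 times for CG5516 without clamp null male 5 (0.279).

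Looking at the 2 forms apart, the called events did not all change the same way. In males, the retaining form was lower in clamp null larvae in 22 of the 22 events with lower PSI, and the spliced form was higher in 16 of them. In females it was lower in 12 of the 15 and the spliced form higher in 12. Of the events with higher PSI in clamp null larvae, the retaining form was higher in 9 of 10 in males and 7 of 9 in females. These counts follow in part from the choice of the events by PSI and carry no test. Across length classes, calls made up 1.68% and 2.52% of the introns under 60 nt in females and males, 3.72% and 6.39% of those of 60 to 79 nt, 3.64% and 3.69% of those of 80 to under 200 nt, 1.92% and 2.42% of those of 200 to under 1000 nt, and 0% of those of 1000 nt and longer (0 of 39 and 0 of 43 by the empirical test). By chromosome, 4 of 174 tested events on the X were called in females and 6 of 173 in males (2.30% and 3.47%), within the range of the 4 large autosome arms, which was 1.39% to 4.52% in females and 2.86% to 5.71% in males.

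Whether genotype acts differently in the sexes was tested as an interaction with limma on PSI over the 12 libraries. Of 829 events 3 passed at an adjusted p under 0.05 over all events (0.362%, background 0.208%), and 43 had an unadjusted p under 0.05. Df31, which encodes a chromatin decondensation factor, kept its 108-nt 5′ UTR intron at 1, 1 and 1 in clamp null and 0.729, 0.775 and 0.763 in control males. In females it was at 1, 0.978 and 1 in clamp null and 0.922, 0.977 and 0.979 in control libraries. Control males lay below all other libraries, and the spliced form was at 137, 92.2 and 109 TPM there and at 0 in clamp null males. The retaining form was also lower in clamp null larvae, at 168 TPM against 346 TPM in control males. In females it was at 162 TPM in clamp null and 489 TPM in control. Df31 as a whole was lower, with log2 differences of −1.44 in males and −1.72 in females (limma, adjusted p = 0.0012 and 0.0014). The difference of the genotype effects on PSI was 0.211 (limma, adjusted p = 0.0141). The 69-nt intron of CG9008, in which the coding sequence of the retaining form ends, was at 1, 1 and 0.879 in clamp null and 0.268, 0.238 and 0.213 in control males, and between 0.92 and 1 in every female library (interaction 0.693, limma adjusted p = 0.00067). Its spliced form averaged 7.47 TPM in control males and no more than 0.229 TPM in any other group. The retaining form of CG9008 averaged 2.45 TPM in clamp null and 3.96 TPM in control females. In males it averaged 3.28 TPM in clamp null and 2.26 TPM in control larvae. With no spliced form in clamp null females, the event was under the minimum of 3 TPM there, so its values are uncertain. The pipsqueak gene psq, a GA-binding factor, kept a 164-nt intron at 0 in every clamp null male and at 0.107, 0.118 and 0.0848 in control males, and at no more than 0.0188 in females (interaction −0.0971, limma adjusted p = 0.0309). The psq result had an adjusted p of 0.0502 to 0.0765 by limma without clamp null female 4, 5 or 6, control female 1 or 3, or clamp null male 4 or 5. No call stood on the log2 ratio of the forms with 1 TPM added (limma adjusted p = 0.322 for Df31, 0.081 for CG9008 and 0.634 for psq). With the replicate number as a block only Df31 passed (limma adjusted p = 0.0363, against 0.0555 for CG9008 and 0.211 for psq). Without control male 2, 5 events passed in all. In all 3 events the control males were the group that differed, the group whose testis markers were also highest, and the part of testis RNA in them was not tested.

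Between the sexes in controls, 36 of 921 events in 36 genes were called (3.91%, background 2.22%), 18 with higher PSI in males and 18 with lower (backgrounds 1.17% and 1.06%). By the adjustment over all events 0 passed by the empirical test, with 63 at an unadjusted p under 0.05, and limma on PSI called 6. The sharpest was CG31055, whose 63-nt coding intron was at 1 in all 3 control males and at 0 in all 3 control females, with 11, 31.5 and 15 TPM of the retaining form in control males and none in control females. Higher PSI in males was also found in GABPI, where exons of CG17219 and of an antisense gene overlap the intron (0.953, 1 and 1 in control males and 0.248, 0.282 and 0.276 in control females), in CG2865 (0.896, 0.987 and 0.973 and, in control females, 0.721, 0 and 0) and in Cdk2, the partner of cyclin E (1, 1 and 1 and, in control females, 0.216, 0.461 and 0.351). The values of 0 for CG2865 in control females 2 and 3 rest on only 1.58 and 0.365 TPM, all of the spliced form. In control males its retaining form averaged 23.9 TPM, so the female side of this difference is uncertain. Ant2, an adenine nucleotide translocase of mitochondria, was at 1, 0.0925 and 1 in control males and at 0 in control females, where all its forms averaged only 2.98 TPM. On the lower side, Mst84B, one of the male-specific transcripts of the testis, was at 0, 0.138 and 0 in control males and at 1 in control females, where the retaining form averaged only 1.5 TPM. In Cdk2 it was control males that were low, with 1.11 TPM. Ant2, Mst84B and Cdk2 are among the 5 called events that passed the minimum of 3 TPM only through 1 of the 2 groups, and no result is taken from them. Among events averaging at least 3 TPM in both groups, 31 of 860 were called (3.60%, background 2.12%). The 5′ UTR introns of udt (0, 0.495 and 0.095 in control males and 1 in all control females), Jhbp2 (0.358, 0.0719 and 0.37 in control males and 1, 1 and 0.526 in control females), CG15445 (0.409, 0.178 and 0 and, in control females, 1, 0.598 and 0.583) and CG31908 (0.372, 0.279 and 0.521 and, in control females, 1, 0.683 and 1) were lower in males without overlap. Several hosts were expressed higher in control males as a whole, with a log2 difference of 2.20 ± 0.33 (SE) for CG31055, 3.31 ± 0.77 for Ant2 and 4.27 ± 0.44 for Mst84B (limma, adjusted p = 0.00025, 0.00644 and 1.7e-05). Single libraries decided the call, with the difference without them in parentheses, of GABPI without control male 2 (0.708), Cdk2 without control female 1 (0.594), control female 2 (0.717) or control female 3 (0.662), Jhbp2 without control male 2 (−0.478), control male 3 (−0.627) or control female 2 (−0.496), and CG15445 without control male 2 (−0.522), control male 3 (−0.433), control female 1 (−0.394) or control female 3 (−0.603).

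Between the sexes in clamp null larvae, 10 of 863 events were called (1.16%, background 0.745%), 5 with higher PSI in males and 5 with lower (backgrounds 0.314% and 0.431%). By the adjustment over all events 0 passed by the empirical test, with 25 at an unadjusted p under 0.05, and limma on PSI called 1. Without clamp null male 4, 5 or 6 or clamp null female 6, the counts were 20, 20, 18 and 16. Among events averaging at least 3 TPM in both groups 9 of 750 were called (1.2%, background 0.823%). Only 2 of the 10 had no overlap. CG10254 kept a 57-nt coding intron at 0.39, 1 and 0.834 in clamp null males and at 0 in all clamp null females. CG33095 kept a 116-nt 5′ UTR intron at 0, 0 and 0.252 in clamp null males and at 1 in all clamp null females, and an exon of CG33096 overlaps it. The median difference (males minus females) was 0 in both genotypes. The 2 comparisons of the sexes share no library, and whether their counts differ was not tested. The call was lost, with the difference then left in parentheses, for CG10254 without clamp null male 5 (0.612) or clamp null female 6 (0.741).

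Introns of known regulators were read from gene lists. Of 46 splicing factor genes, 11 host 23 retained introns, and 0 of 19 tested in females and 0 of 20 tested in males were called. The background is 2.4% in females and 2.89% in males. A count of 0 in so few events, here and in the lists below, cannot be told from these shares. The 2401-nt intron of B52, an SR protein, was at 0.0583, 0.0496 and 0.0782 in clamp null females and 0.0647, 0.0283 and 0.0104 in control females, and the 780-nt intron of su(w[a]), a splicing regulator that keeps introns of its own RNA, was at no more than 0.0772 in any library. The 403-nt and 518-nt introns of B52 differed by 0.358 and −0.424 between female genotypes, with overlap (adjusted p = 0.206 for each, empirical test). SC35, another SR protein, was lower without a call, at 0.0242, 0 and 0.0129 in clamp null and 0.262, 0.345 and 0.151 in control females (adjusted p = 0.152), and Psi, a P-element splicing factor, was at 0.154, 0.175 and 0.384 in clamp null and 0.0681, 0 and 0.0896 in control females (adjusted p = 0.126). The coding intron of fus, an RNA-binding splicing regulator, was at 0.727, 0.506 and 0.433 in clamp null and 0.661, 0.573 and 0.734 in control females, and at 0.749, 0.815 and 0.284 in clamp null and 0.702, 0.639 and 0.758 in control males, with overlap in both sexes. A list of 6 genes with introns known to be retained under regulation, msl-2 and su(w[a]) among them, holds 5 events, and 0 of 4 tested in each sex were called by the empirical test. The splicing factor genes themselves were lower in clamp null larvae in 17 of 45 tested in females and 29 in males, with 3 and 0 higher (limma, adjusted p under 0.05, against 15.6% and 45.8% of all genes lower and 9.8% and 11.3% higher), beside median log2 differences of −0.65 and −0.94 over the list and −0.20 and −0.75 over all genes.

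Of 14 genes of sex determination and dosage compensation, 3 host 4 retained introns and none was called in any comparison by the empirical test. For msl-2, the male-specific subunit of the dosage compensation complex, the 133-nt 5′ UTR intron had a PSI of 1, 0 and 0 in clamp null females and 0, 0.43 and 0 in control females, and of 0, 1 and 1 in clamp null males and 0.0581, 0 and 0.365 in control males (adjusted p = 0.198 in females and 0.0554 in males). The event averaged 6.52 TPM, and values of 0 and 1 stood side by side within groups. Both coding introns of Unr, the RNA-binding partner of Sex-lethal on msl-2, were kept at 0.939 or more in every library, and the event of tra2, a partner of transformer in splicing, had a value in 9 of the 12 libraries. The exon junction complex and nonsense-mediated decay list (12 genes) has 1 event, in Acn, without a call. Its genes were lower in clamp null larvae in 4 of 12 in females and 9 of 12 in males (limma, against 15.6% and 45.8% of all genes), with list medians of −0.75 and −1.01 on the log2(TPM + 1) scale beside −0.20 and −0.75 over all genes.

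Ribosomal protein genes gave the most abundant events. Of 92 genes 16 host 21 retained introns, and besides RpL9 none was called between genotypes in 19 events tested in females and 20 in males. The 5 events with the highest abundance all belong to this list. The 60-nt 5′ UTR intron of RpL29 (15436 TPM) was at a PSI of 0.0109, 0.0162 and 0.0142 in clamp null females and 0.0167, 0.0242 and 0.0183 in control females. The 5′ UTR introns of RpL13 and RpS6 were at no more than 0.0245 and 0.00153 in any library, and the 57-nt coding intron of RpL6 at 0.999 or more. These introns were near 0 or near 1 in every group. Of the 21 events of the list, 9 had a mean PSI under 0.1 and 6 over 0.9. Others lay between, among them the 67-nt intron of RpS15Aa (mean PSI 0.156) and RpS21. The 62-nt intron of RpS21, where the coding sequence of the retaining form ends, was at 0.579, 0.595 and 0.573 in clamp null females and 0.528, 0.55 and 0.523 in control females. In males it was at 0.587, 0.621 and 0.35 in clamp null and 0.564, 0.61 and 0.577 in control libraries. Its female groups do not overlap although they differ by only 0.0484 (adjusted p = 0.114, empirical test), and clamp null male 6 lies apart from the other 11 libraries. Introns of snoRNA-bearing hosts are included, and a snoRNA overlaps those of RpS6 and RpL15.

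In other lists the muscle genes host 3 events, 2 of them over 900 TPM, and none was called. Zasp66, a protein of the muscle Z-disc, was at 0.028, 0.0221 and 0.0221 in clamp null and 0.0461, 0.0441 and 0.0255 in control females, while 14 of 16 muscle genes were higher in clamp null females (9.8% of all genes) and 14 higher and 1 lower in clamp null males (11.3% and 45.8% of all genes, limma). Fbp1, the receptor for larval serum protein in the fat body, is the host of 2 events. Its 66-nt intron was called in males, at 0 in every clamp null male and 0.138, 0.149 and 0.26 in control males, but the spliced form was low in clamp null males, with 3.93 TPM on average against 143 TPM in control males. Its 60-nt intron, which shares one end, had a value in 7 of the 12 libraries. When 1 library was left out the call ended, at the difference in parentheses, for Fbp1 (66 nt) without control male 1 (−0.204) or control male 3 (−0.143).

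The extremes of length differ in kind. The shortest intron, 23 nt within the coding sequence of the stress transcription factor Xbp1, is the one that the endonuclease IRE1 removes in the unfolded protein response, outside the spliceosome. It was kept at a PSI of 0.914, 0.916 and 0.952 in clamp null females and 0.916, 0.944 and 0.988 in control females, and of 0.872, 0.844 and 0.9 in clamp null males and 0.896, 0.929 and 0.861 in control males. The groups overlap within each sex, and the difference was −0.022 in females (adjusted p = 0.189) and −0.0237 in males (adjusted p = 0.218). The cut form was present in every library, at 18.2 TPM in clamp null and 17.3 TPM in control females. The next shortest were a 46-nt intron of CG12589, which had values in control males only (0, 0.591 and 0.686), and a 48-nt coding intron of psq at 0.829, 0.394 and 0.827 in clamp null and 0.737, 0.738 and 0.743 in control females. The longest introns were of 8771 nt in CG7564, at 1 in every library, 6192 nt in brat, a translational repressor, and 4003 nt in bif, an actin-binding protein, whose PSI stayed between 0.0194 and 0.128. The brat values ran from 0.0543 to 1 with overlap between all groups, at 3.25 TPM.

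Taken over all hosts of retained introns, total expression was called in shares near or under those of all genes. Of 779 hosts, 75 were higher and 124 lower in clamp null females (9.63% and 15.9%, background 9.8% and 15.6% of 11145 genes, limma), 112 in all without control female 2. In males 66 were higher and 349 lower in clamp null larvae (8.47% and 44.8%, background 11.3% and 45.8%). Between control males and control females 140 hosts were higher in males and 11 lower (18.0% and 1.41%, background 23.2% and 1.56%). Between clamp null males and females no host was called by limma (36 at an unadjusted p under 0.05), with backgrounds of 0.0% higher and 0.0179% lower. Of the 31 hosts of introns called in males, 3 were higher, 17 lower and 11 not called, and of the 23 in females 6, 7 and 10. In females both the higher and the lower share of these hosts lay above those of all genes. In males only the lower share did. These hosts are few and carry no test. The median log2 difference of all genes was −0.20 in females and −0.75 in males in TPM and −0.023 and −0.24 after scaling by median-of-ratios factors, so the levels of genes depend on the scaling. PSI does not, since both forms of an event come from the same library.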

How the data were processed

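The 12 libraries of polyadenylated larval RNA, 3 per group, were grouped by the titles. The values deposited by the authors are TPM per transcript from Salmon, with no read counts used here. The submitters' processing notes also list FastQC, Trim Galore, cutadapt, Bowtie2 and dm6, without versions. Exons were read from Ensembl release 115 (BDGP6.54), which holds 29926 of the 29936 transcripts quantified. PSI was the TPM of transcripts that keep an intron divided by the TPM of all transcripts of the event.

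The members and gene lists were chosen with earlier results of these data known. Events with a mean of at least 3 TPM were kept. As in SUPPA, the difference in mean PSI was compared with 1000 differences between replicates of events of similar TPM, with Benjamini-Hochberg adjustment within a gene and calls under 0.05. Limma 3.58.1 (R 4.3.3) tested PSI, the interaction of sex and genotype, and log2(TPM + 1) of genes averaging 1 TPM or more, adjusted over all events or genes. Differences are on that log2(TPM + 1) scale, which understates changes of low genes. Genotype was also permuted within sex over 400 assignments, an exact two-sided test. Events and PSI were computed with Python 3.11.15, numpy 2.4.6 and pandas 2.3.3, and plots drawn with matplotlib 3.10.9. The fits were tested on simulated data.

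Named events are, without overlap, the 10 largest called rises and falls for each genotype comparison and the 5 largest for each comparison of the sexes, all events with an interaction or called in both sexes, all in the gene lists, the 5 most abundant, and the 3 longest and 3 shortest. Deviations from the group mean had correlations of −0.022 to 0.030 between same-numbered libraries of the sexes. Between differently numbered ones they were −0.038 to 0.041. These values show no pairing by number, and a shared batch was not tested. Columns with values of no sample numbered 0. Alternatives changed the adjustment, the test, the TPM minimum, the pseudocount, the gene scaling and the libraries.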

Additional observations from a re-analysis of the deposited data

Results flagged for a closer look

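In 3 retained introns the effect of clamp null on PSI differed between males and females by the interaction test of limma, adjusted over all events. The difference of the genotype effects (males minus females) was 0.211 for the 108-nt intron of Df31, 0.693 for the 69-nt intron of CG9008 and −0.0971 for the 164-nt intron of psq. In each the 3 control males lay apart from the other 9 libraries. The CG9008 event averaged only 2.45 TPM in clamp null females, under the minimum of 3 TPM. None of the 3 passed on the log2 ratio of the forms with 1 TPM added, only Df31 passed with the replicate block, and psq failed when any of 7 single libraries was left out. With clamp null male 6 alone for its group all 3 passed, among 15 events.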

How the results depend on the processing

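Depth is unknown and TPM per transcript is an estimate, so low events are the least certain. The calls depended on the adjustment and the test. The counts below have no share over the 7 classes beside them and compare settings only. Adjusted over all events of the 7 classes, the empirical test called 0 retained introns in females, 0 in males, 0 between control sexes and 0 between clamp null sexes, and with no adjustment 57, 61, 63 and 25. Limma on PSI called 5, 20, 6 and 1. Limma on the log2 ratio of retained to spliced TPM called 12, 46, 5 and 0 with 1 TPM added to each form and 2, 8, 1 and 0 with 0.1 TPM added. A minimum of 10 TPM left 6 calls between clamp null sexes. The interaction gave 0 events on the log2 ratio with 1 TPM added. With clamp null male 6 alone for its group, limma on PSI called 26 events between male genotypes, 16 between clamp null sexes and 15 interactions. The median length was 0.529 times that of other introns of the same genes, against 0.980 times that of all other introns, and the correlation of PSI with length was −0.20 at 10 TPM or more. A minimum of 1 TPM or none, a difference of at least 0.2, 1 count per intron, and, chosen after seeing the data, ties handled as SUPPA does, at least 3 TPM in both groups and leaving out host genes called between control sexes kept the 4 counts of calls within 1.5 times. The scaling, pseudocount and filter kept the host gene counts within that range.

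Leaving out 1 library at a time gave 24 to 42 calls in females, 34 to 59 in males, 36 to 44 between control sexes and 9 to 20 between clamp null sexes, 2 to 5 interactions, and 112 to 185 host genes called in females and 0 to 1 between clamp null sexes. Of 65 named differences, 33 kept their call under every left-out library and 32 lost it under at least 1. The Apc2 difference between control sexes ran from −0.374 to 0.0222 and turned its sign without control female 1. Limma on PSI kept 9 of the 56 that it could test. The causes were not tested.

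With the replicate number as a block, limma on PSI called 3 events between control sexes (10 in the same 6 libraries without a block) and 0 between clamp null sexes (1 without), and the interaction test gave 1 event, Df31, in place of 3. For CG9008 and psq the limma adjusted p with the block was 0.0555 and 0.211. The numbers are shared by sexes only, so no block could be fitted between genotypes.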
